A study of Saccharomyces cerevisiae with 24 samples.

Results

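The monosome fractions of 2 budding yeast strains were compared, one lacking RPL22A (ΔRPL22A) and one lacking RPL22B (ΔRPL22B). The 2 genes are paralogs, and both encode Rpl22, a protein of the large ribosomal subunit. All libraries whose labels give either deletion strain and the monosome fraction were taken, which gave 4 of the 24 libraries in the series, 2 per strain. Wild-type monosome libraries, also 2, are given for reference, and the other RNA pools of the deletion strains (input RNA, light polysomes and heavy polysomes, 2 libraries per strain each) are used where a monosome value is set beside them. All strains were grown to log phase (optical density 0.6 to 0.8) and treated with cycloheximide, an inhibitor that holds ribosomes on their mRNAs. The series title refers to oxidative stress, but no stress treatment is named for any library. The labels do not give the strain background, how the deletions were made, or whether a strain is 1 clone.

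On a sucrose gradient, mRNA carrying a single ribosome sediments as a monosome, and mRNA carrying several ribosomes sediments as polysomes. The monosome fraction holds short mRNAs, mRNAs that are initiated slowly and mRNAs whose ribosomes stop on short upstream reading frames, besides empty ribosomes. In yeast the transcription factor Gcn4, whose own mRNA carries such upstream frames, induces the genes of amino acid synthesis when its translation is released. The level of an mRNA in monosomes follows both its level in the cell and its distribution over the gradient, and the same contrast in the other pools is therefore given for a part of the genes.

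The monosome libraries held 6898613 and 7945232 counts in ΔRPL22A and 9951761 and 10947937 counts in ΔRPL22B. Most of these counts belonged to 7 rows of the ribosomal DNA, which took 85.5% and 93.0% in ΔRPL22A and 95.3% and 97.1% in ΔRPL22B. This left 996947 and 558482 counts for all other genes in ΔRPL22A, and 468906 and 314212 in ΔRPL22B, so that ΔRPL22B is the more thinly counted strain. Within the locus 1 row, YLR154W-E, held 70.6% and 63.9% of the counts in ΔRPL22A and 96.9% and 96.0% in ΔRPL22B; the part of this split in the results was not tested. Log2 CPM (counts per library scaled by size) correlated across genes with a Pearson's r of 0.956 between the ΔRPL22A duplicates and 0.935 between the ΔRPL22B duplicates, against 0.901 to 0.923 over the 4 pairs of a ΔRPL22A with a ΔRPL22B library. ΔRPL22B replicate 1 correlated with wild-type replicate 1 at 0.944, above its own duplicate.

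Genes that mark mating type separated both deletion strains from wild type. MF(ALPHA)1, which encodes the pheromone of α cells, had 431.0 and 492.8 CPM in ΔRPL22A, 450.6 and 450.8 CPM in ΔRPL22B, and 0.09 and 0.846 CPM in wild type. STE2, the α-factor receptor made by a cells, had 0.483 and 0.288 CPM in ΔRPL22A, 0.605 and 0.414 CPM in ΔRPL22B, and 55.4 and 60.1 CPM in wild type. Of the 7 a-specific and 4 α-specific genes tested, 0 passed the test between the deletion strains in monosomes, which 3.10% of all tested genes did. MF(ALPHA)2, the second α pheromone gene, did not overlap, with 212.3 and 185.9 CPM in ΔRPL22A, 433.0 and 318.8 CPM in ΔRPL22B, and 0.18 and 0 CPM in wild type (ΔRPL22A over ΔRPL22B -0.92 ± 0.36, adjusted p = 0.169). It passed as lower in light (-1.32 ± 0.36) and heavy polysomes (-1.89 ± 0.37), and SAG1, the α agglutinin, passed as higher in input (0.94, adjusted p = 0.0478). Among genes used as auxotrophic markers, LYS2 had 0 counts in all 4 deletion-strain libraries and 16.7 and 14.4 CPM in wild type, whereas MET17 had 9.98 and 10.95 CPM in ΔRPL22A, 10.89 and 5.79 CPM in ΔRPL22B, and 0 in wild type. The wild-type strain therefore differs from the deletion strains in these marker genes besides RPL22, and for wild-type values the marker difference and the deletions cannot be told apart.

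The targeted genes were read first. RPL22B had 828 and 508 counts in ΔRPL22A monosomes, 0 and 0 counts in ΔRPL22B, and 460 and 112 counts in wild type. Scaled by TMM, these were 133.2 and 146.4 CPM in ΔRPL22A against 41.4 and 47.4 CPM in wild type. Against a floor of 3 counts over the 2 ΔRPL22B libraries, RPL22B was at least 263-fold higher in ΔRPL22A. RPL22A had 0 and 0 counts in ΔRPL22A and 2 and 0 counts in ΔRPL22B, and only 9 and 1 counts in wild type, too few for the test. Its row cannot check the ΔRPL22A label, because it is as good as empty in strains that keep the gene.

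Both coding sequences are split by 1 intron. RPL22A lies on the plus strand of chromosome XII and has 366 coding bases, and RPL22B lies on the minus strand of chromosome VI and has 369. Their aligned coding sequences are 78.9% identical over 369 columns, with a longest identical run of 23 bases. The end of each coding sequence is printed from the RefSeq genome (build R64, the sequence of sacCer3), chrXII:263802-263948 on the plus strand and chrVI:64243-64392 on the minus strand, because the sources used here do not say how a read matching both copies was counted. Capitals mark the bases that differ or have no partner in the other copy, 28 in RPL22A and 31 in RPL22B.
RPL22A: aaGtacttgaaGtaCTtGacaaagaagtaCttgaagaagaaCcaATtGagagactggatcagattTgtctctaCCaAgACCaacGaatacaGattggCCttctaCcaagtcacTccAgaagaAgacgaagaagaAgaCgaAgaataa
RPL22B: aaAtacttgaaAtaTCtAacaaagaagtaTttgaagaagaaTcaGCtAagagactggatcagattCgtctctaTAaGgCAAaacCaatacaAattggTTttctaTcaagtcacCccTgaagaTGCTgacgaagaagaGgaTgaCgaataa

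Between the strains, 167 of 5380 tested genes passed the test in monosomes (edgeR quasi-likelihood F-test, Benjamini-Hochberg adjusted p under 0.05; 3.10% of genes tested). Of these, 81 were higher in ΔRPL22A (1.51% of genes tested) and 86 were lower (1.60%). In bulk RNA a change in every cell and a change in a share of the cells cannot be told apart. At an unadjusted p under 0.05 there were 920 genes, and the median log2 fold change over all tested genes was -0.004. Among genes that averaged 10 CPM or more, and apart from RPL22B, the largest rises were those of CCW12, ARG7, the assembly factor RLP24 and ARO3, and the largest falls those of the acid phosphatase PHO5, TDH1, ENO1 and PHM6. Some genes of fewer counts had larger fitted values. Genes that rose had a median length of 902 bp and those that fell of 1347 bp, against 1278 bp over all tested genes. The count depends on each library: leaving out ΔRPL22A replicate 1 left 37 genes, leaving out ΔRPL22A replicate 2 left 43, and 13 and 70 were left when ΔRPL22B replicate 1 or 2 was dropped. The naming rule gave 68 genes that passed, and these were followed through the alternatives. Of them 9 passed without any 1 of the 4 libraries and under every other setting tried, namely RPL22B, CCW12, ARG7, RLP24, ARO3, PHO5, ENO1, PHM6 and PDR5. The others of the 68 lost the call under at least 1 of them, and 0 of the 68 changed direction. RPL22B, 1 of the 9, is the gene deleted in ΔRPL22B, so its pass was fixed by the design.

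Wild type had the value nearer to ΔRPL22B than to ΔRPL22A for 156 of the 167 genes (93.4%), against 3390 of all 5380 tested genes (63.0%). This held for 73 of the 81 genes that rose and for 83 of the 86 that fell. The marker difference of the wild-type strain given above applies to this count.

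**Figure D1:**
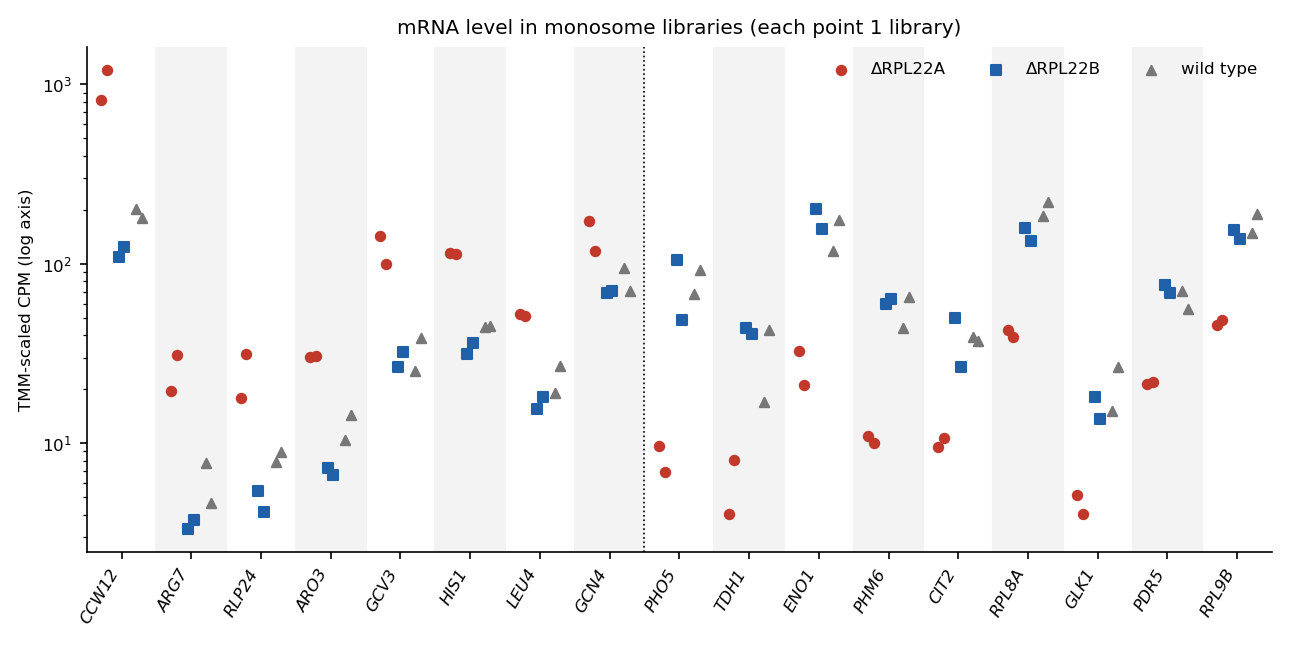
TMM-scaled CPM (log axis) of 17 genes in the monosome libraries of ΔRPL22A (circles), ΔRPL22B (squares) and wild type (triangles), each point 1 library; genes left of the dotted line were higher in ΔRPL22A and genes right of it lower. The genes shown all passed, and in all 167 genes that passed the strains did not overlap, so the gap between strains follows from the choice. CCW12 stood at 822 and 1202 CPM in ΔRPL22A against 109 and 124 CPM in ΔRPL22B.

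Genes of amino acid synthesis rose in several pathways. The 6 lists were for arginine, histidine, lysine, branched-chain, aromatic and the glycine, serine, threonine and one-carbon pathways. Of their 68 tested genes 14 rose and 0 fell, against 1.51% and 1.60% of all tested genes. Arginine synthesis stood highest: 5 of its 10 tested genes rose, and its median log2 fold change was 1.56. ARG7, which encodes the mitochondrial ornithine acetyltransferase, had 19.6 and 30.8 CPM in ΔRPL22A and 3.33 and 3.72 CPM in ΔRPL22B. Its log2 fold change was 2.83 ± 0.36 (SE; adjusted p = 2.79e-05), and the ΔRPL22A libraries lay well above those of ΔRPL22B. CPA1, an mRNA with a regulatory upstream reading frame, rose by 1.52 ± 0.30 on the log2 scale. ARG4, argininosuccinate lyase, rose by 1.60 ± 0.32. ARG56, which encodes a precursor of 2 arginine enzymes, rose too and was chosen after its values were seen; it had 6.44 and 6.92 CPM in ΔRPL22A and 1.81 and 1.65 CPM in ΔRPL22B. ARG1, argininosuccinate synthetase, did not pass, with 11.8 and 7.49 CPM in ΔRPL22A and 6.65 and 4.96 CPM in ΔRPL22B.

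In most of the other amino acid pathways some steps rose and others did not pass. HIS1, the first enzyme of histidine synthesis, had 115.4 and 113.0 CPM in ΔRPL22A and 31.4 and 36.4 CPM in ΔRPL22B (log2 fold change 1.75 ± 0.31, adjusted p = 0.00146), and HIS5 rose with it, while the other 4 of 6 genes on the histidine list did not pass. HIS3, a step of the same pathway that was listed among the auxotrophic markers, also rose, with 56.8 and 40.05 CPM in ΔRPL22A and 23.9 and 14.5 CPM in ΔRPL22B (1.33 ± 0.30, adjusted p = 0.0123). ARO3, 1 of the 2 isoenzymes that open aromatic amino acid synthesis, was steady at 30.4 and 30.5 CPM in ΔRPL22A against 7.26 and 6.62 CPM in ΔRPL22B (2.13 ± 0.30, adjusted p = 9.66e-05). It was the only one of the 13 tested aromatic genes that passed, although 12 of them had a fold change above 0. Of 10 branched-chain genes, 4 rose: the acetolactate synthase subunits ILV2 (1.27 ± 0.26) and ILV6 (1.39 ± 0.31), and LEU4 (1.64 ± 0.32) and LEU1 (1.36 ± 0.30) of leucine synthesis. The list's median was 1.04, and all 10 lay above 0. GCV3, a subunit of the glycine cleavage system, had 142.6 and 99.7 CPM in ΔRPL22A and 26.6 and 32.3 CPM in ΔRPL22B (2.05 ± 0.39, adjusted p = 0.00326). HOM2 of threonine and methionine synthesis rose by 1.14 ± 0.28. No member of the lysine list (10 tested, median 0.25) or of the sulfur and methionine list (19 tested, median -0.09) passed. In lists this short that says little, as 3.10% of all tested genes passed.

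GCN4 itself, the activator of these genes, had 172.2 and 117.6 CPM in ΔRPL22A, 68.3 and 70.3 CPM in ΔRPL22B, and 94.3 and 70.7 CPM in wild type. It rose by 1.07 ± 0.28 on the log2 scale (adjusted p = 0.0292), with both ΔRPL22A libraries above all others. In input it had 123.8 and 125.8 CPM in ΔRPL22A against 64.0 and 68.7 CPM in ΔRPL22B (0.91 ± 0.27, adjusted p = 0.0486), and in heavy polysomes 42.3 and 55.5 CPM against 21.6 and 22.6 CPM (1.14 ± 0.29, adjusted p = 0.0197). In light polysomes the strains overlapped, at 78.8 and 69.7 CPM in ΔRPL22A and 84.4 and 60.6 CPM in ΔRPL22B. The difference in monosomes beyond that in input was 0.15 ± 0.39 on the log2 scale (adjusted p = 0.95). Of the 12 tested genes for GCN4 and its translational control (kinase, regulators and initiation factor subunits), GCN4 was the only one that passed. The share over all tested genes was 3.10%. All 12 had a fold change above 0, with a median of 0.50.

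The core of the Gcn4 binding motif, TGACTC read on either strand, was searched in the 300 bases before each start codon. It was found in 7.98% of 5289 windows of tested genes, in 17 of 80 windows of genes that rose (21.2%) and in 3 of 85 windows of genes that fell (3.53%). In the 6 amino acid lists it was found in 45 of 68 windows (66.2%). There it was found in 11 of the 14 genes that rose (78.6%) and in 34 of the 54 that did not (63.0%). These 11 are among the 17 above, so most of the 17 belong to the amino acid lists. The windows of ARO3, ILV2 and LEU1 held no match, which says only that these letters are absent from those 300 bases. For 3 genes that rose, the bases from 300 to 101 before the start codon are printed from the RefSeq genome (build R64), with the motif in capitals on either strand, to show its place. Counted from the start codon, the match begins 152 bases before ARG7, 179 before ARG4 and 223 and 177 before ARG56. They come from chrXIII:396480-396679 (minus strand), chrVIII:141503-141702 (minus) and chrV:295110-295309 (plus).
ARG7: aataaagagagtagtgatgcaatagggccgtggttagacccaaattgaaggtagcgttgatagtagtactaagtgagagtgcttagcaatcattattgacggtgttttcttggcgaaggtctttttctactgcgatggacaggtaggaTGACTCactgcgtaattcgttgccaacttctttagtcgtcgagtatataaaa
ARG4: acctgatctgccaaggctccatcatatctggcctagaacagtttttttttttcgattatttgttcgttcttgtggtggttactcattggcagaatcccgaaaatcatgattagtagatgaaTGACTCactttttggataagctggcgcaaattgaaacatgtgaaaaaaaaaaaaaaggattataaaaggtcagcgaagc
ARG56: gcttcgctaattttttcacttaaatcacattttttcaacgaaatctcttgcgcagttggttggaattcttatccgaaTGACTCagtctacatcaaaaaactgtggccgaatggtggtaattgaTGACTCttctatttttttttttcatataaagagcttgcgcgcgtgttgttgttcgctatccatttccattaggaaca

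Among genes of ribosome assembly some rose and none fell. Of 62 tested large-subunit assembly factors 11 rose and 0 fell, against 1.51% and 1.60% of all tested genes. A fold change above 0 was found in 61 of the 62, with a median of 0.87. In 52 of the 62 both ΔRPL22A libraries were above both ΔRPL22B libraries, against 25.6% of all tested genes. Their CPM summed to 1016 and 1080 in ΔRPL22A, 565 and 637 in ΔRPL22B, and 706 and 634 in wild type. RLP24, a placeholder protein that is replaced by Rpl24 late in assembly, had 17.9 and 31.4 CPM in ΔRPL22A and 5.44 and 4.14 CPM in ΔRPL22B (2.32 ± 0.38, adjusted p = 0.000796). MRT4, which holds the place of the stalk protein P0 in the nascent subunit, had 38.3 and 50.4 CPM in ΔRPL22A and 13.3 and 19.02 CPM in ΔRPL22B (1.46 ± 0.31). NOP15 rose too, with 16.6 and 19.02 CPM in ΔRPL22A and 5.75 and 7.86 CPM in ΔRPL22B. RSA3, a factor of early large-subunit assembly, rose on few counts, with 6.12 and 8.93 CPM in ΔRPL22A and 0.302 and 2.48 CPM in ΔRPL22B. Of 39 tested genes of the small-subunit processome, the complex that assembles on the nascent pre-rRNA, 5 rose and 0 fell, 36 lay above 0, and the median was 0.72. Among them SNU13, an RNA-binding protein of both the box C/D snoRNPs and the spliceosome, had 71.8 and 70.6 CPM in ΔRPL22A and 30.8 and 18.2 CPM in ΔRPL22B (1.52 ± 0.38). The rRNA methyltransferase NOP1 rose by 1.17 ± 0.27, and the Mpp10 partners IMP3 and IMP4 by 1.92 ± 0.39 and 1.45 ± 0.32. Translation factors (34 tested) and aminoacyl-tRNA synthetases (20 tested) held 0 genes that passed, with medians of 0.37 and 0.08. As only 3.10% of all tested genes passed, 0 in lists this short says little about them.

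The ribosomal protein genes that passed went both ways, where 1.51% of all tested genes rose and 1.60% fell. Of 77 tested large-subunit genes other than the RPL22 pair, only RPL17A rose, while RPL7B, RPL8A and RPL9B fell, and of 57 tested small-subunit genes RPS11A was the only one that passed. Fold changes lay above 0 in 69 of the 77 (89.6%, median 0.58) and in 50 of the 57 (87.7%, median 0.42), against 49.6% of all tested genes. RPL8A had 42.5 and 38.9 CPM in ΔRPL22A, 157.5 and 134.0 CPM in ΔRPL22B, and 183.4 and 220.5 CPM in wild type (ΔRPL22A over ΔRPL22B -1.84 ± 0.37, adjusted p = 0.00612). RPL9B had 45.5 and 48.4 CPM in ΔRPL22A and 153.9 and 137.3 CPM in ΔRPL22B (-1.63 ± 0.41, adjusted p = 0.0206). RPL7B had 5.63 and 4.61 CPM in ΔRPL22A and 13.9 and 13.7 CPM in ΔRPL22B (-1.41 ± 0.31, adjusted p = 0.0098). Both libraries of ΔRPL22A were lower in all 3, but the strains did not overlap in any of the 167 genes that passed. In input, light and heavy polysomes RPL8A stood at -1.53, -1.02 and -2.62, RPL9B at -1.05, -1.32 and -2.07 and RPL7B at -1.73, -1.42 and -2.11, of which RPL8A in light polysomes and RPL9B in input did not pass. Each has a paralog that encodes a near-identical protein and did not pass. RPL8B had 235.0 and 193.9 CPM in ΔRPL22A and 161.5 and 117.9 CPM in ΔRPL22B, with a log2 fold change of 0.62 ± 0.30. RPL9A stood at 0.72 ± 0.43 and RPL7A at 0.52 ± 0.30. How reads shared by such copies were counted is unknown, so that the split within a pair is uncertain. RPL17A had 381.7 and 336.6 CPM in ΔRPL22A and 202.0 and 125.7 CPM in ΔRPL22B (1.13 ± 0.32, edgeR adjusted p = 0.0418). RPS11A had 265.7 and 259.3 CPM against 125.8 and 99.2 CPM (1.22 ± 0.33, edgeR adjusted p = 0.0374). Their paralogs RPL17B and RPS11B stood at 0.55 ± 0.29 and 0.56 ± 0.32 and did not pass. The same limit on shared reads applies to these 2 pairs.

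**Figure D2:**
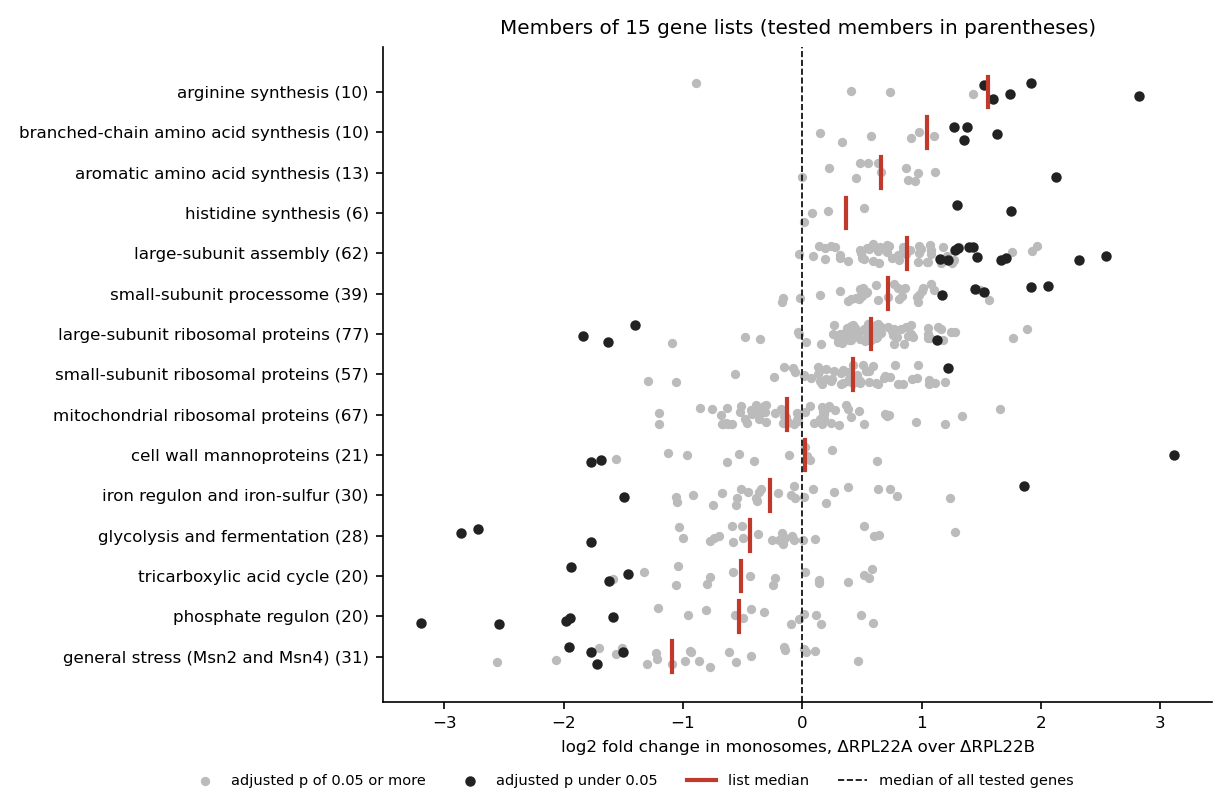
Log2 fold change in monosomes (ΔRPL22A over ΔRPL22B) of the members of 15 gene lists, with the number tested; black points passed the test at an adjusted p under 0.05, red bars are list medians and the dashed line is the median of all tested genes. Medians run from 1.56 in arginine synthesis to -1.10 in the general stress list; 16 points that rest on 3 or fewer counts in a strain are not drawn but count toward the medians.

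The glycolytic genes that fell encode isoenzymes of steps that another gene also serves. Of 28 tested genes of glycolysis and fermentation 5 fell (ENO1, TDH1, GLK1, PYK2 and the hexokinase HXK1) and 0 rose. The shares over all tested genes were 1.60% and 1.51%. The list's median log2 fold change was -0.44. ENO1, an enolase isoenzyme, had 32.8 and 21.0 CPM in ΔRPL22A, 202.6 and 155.5 CPM in ΔRPL22B, and 117.4 and 174.3 CPM in wild type (ΔRPL22A over ΔRPL22B -2.72 ± 0.39, adjusted p = 9.66e-05). Its partner ENO2 had 1819 and 1234 CPM in ΔRPL22A and 1696 and 1540 CPM in ΔRPL22B, and the strains overlapped. TDH1, a glyceraldehyde-3-phosphate dehydrogenase, had 4.02 and 8.07 CPM in ΔRPL22A and 43.9 and 40.5 CPM in ΔRPL22B (-2.87 ± 0.53, adjusted p = 0.00253). TDH2 and TDH3 did not pass, at -0.74 ± 0.38 and 0.51 ± 0.40. The copies of enolase and of the dehydrogenase are close in sequence, so that reads may have been split between them. GLK1, a glucokinase, fell by 1.77 ± 0.37 on the log2 scale. The pyruvate kinase isoenzyme PYK2 had 2 and 0 counts in ΔRPL22A and 16 in all in ΔRPL22B, a ratio of 13.5 (95% counting interval 3.18 to 121).

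The genes of the general stress response, which Msn2 and Msn4 control, had the lowest median of the 39 lists with tested genes. Of 31 tested, 6 fell and 0 rose, against 1.60% and 1.51% of all tested genes, and the median was -1.10. Their CPM summed to 64.8 and 60.8 in ΔRPL22A, 144.8 and 122.0 in ΔRPL22B, and 121.1 and 157.0 in wild type. In 22 of the 31 both ΔRPL22A libraries were below both ΔRPL22B libraries, against 24.7% of all tested genes. The members that fell were GLK1, PNC1 (the nicotinamidase, -1.96 ± 0.44), GPD1 (glycerol-3-phosphate dehydrogenase, -1.51 ± 0.38), HSP26, HSP104 and HXK1. HSP26, a small heat shock protein, had 3 counts in ΔRPL22A and 21 in ΔRPL22B, a ratio of 11.8 (95% counting interval 3.54 to 62.0), so that its size is poorly known. TPS1, trehalose-6-phosphate synthase, did not pass at -0.62 ± 0.39. Of 22 chaperone genes, SSA1 (-1.49 ± 0.39) and HSP60 (-1.14 ± 0.27) fell, and the median was -0.13. Of 29 thioredoxin, peroxidase and glutathione genes only OYE3, an NADPH dehydrogenase, passed; it had 0.483 and 0.288 CPM in ΔRPL22A and 6.65 and 2.90 CPM in ΔRPL22B, and the median of the list was 0.02.

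Of 20 tested genes of the tricarboxylic acid and glyoxylate cycles 3 fell and 0 rose, against 1.60% and 1.51% of all tested genes. The list's median was -0.51. CIT2, the peroxisomal citrate synthase, had 9.49 and 10.7 CPM in ΔRPL22A and 49.9 and 26.5 CPM in ΔRPL22B (-1.94 ± 0.36, adjusted p = 0.00255). Aconitase, ACO1, had 10.6 and 14.4 CPM in ΔRPL22A and 38.4 and 29.4 CPM in ΔRPL22B (-1.46 ± 0.29, adjusted p = 0.00536), and the cytosolic malate dehydrogenase MDH2 fell by 1.62 ± 0.38. The 31 nuclear genes of the respiratory chain and ATP synthase held 0 that passed (median 0.29), as did the 67 mitochondrial ribosomal protein genes (median -0.13). The share that passed over all tested genes was 3.10%.

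Among phosphate genes, phosphatases fell in ΔRPL22A. Of 20 tested genes of the phosphate regulon, which Pho4 switches on when phosphate is scarce, 5 fell and 0 rose. The shares over all tested genes were 1.60% and 1.51%. The list's median was -0.53. PHO5, the main secreted acid phosphatase, had 9.66 and 6.92 CPM in ΔRPL22A, 105.2 and 48.8 CPM in ΔRPL22B, and 68.0 and 92.7 CPM in wild type. Its log2 fold change was -3.20 ± 0.37 (adjusted p = 5.38e-06), the lowest among those that passed and averaged 10 CPM or more. PHM6, a phosphate-regulated gene without a known activity, had 10.94 and 10.09 CPM in ΔRPL22A and 59.9 and 63.7 CPM in ΔRPL22B (-2.55 ± 0.46, adjusted p = 0.00183). The acid phosphatase PHO12 had 7.56 and 4.90 CPM in ΔRPL22A and 28.1 and 21.1 CPM in ΔRPL22B (-1.95 ± 0.34), and its near copy PHO11 fell by 1.98 ± 0.42, a pair in which the place of shared reads is unknown. PHO8, the vacuolar alkaline phosphatase, fell by 1.58 ± 0.31. The high-affinity transporter PHO84 did not pass, with 87.2 and 76.4 CPM in ΔRPL22A and 150.3 and 135.6 CPM in ΔRPL22B (-0.80 ± 0.27, adjusted p = 0.11). SPL2, a regulator of low-affinity uptake, stood at -0.50 ± 0.46.

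CACGTG, the core of the Pho4 motif, was found in 3.65% of the 5289 windows, in 10 of 20 windows of the phosphate list (50%) and in 4 of the 5 of its genes that fell, all but PHO8. PHO11 and PHO12 share the same letters from 300 to 101 bases before the start codon, with the match beginning at 283 in both. That copied stretch was counted as 2 windows. The windows of genes that fell held CACGTG in 8 of 85 cases (9.41%), and this count also holds both copies. A pair of these windows is printed from the same bases before the start codon as above, with the motif in capitals, for the phosphate genes that fell most: PHO5 from chrII:431052-431251 (minus strand), with the match beginning 253 bases before the start codon, and PHM6 from chrIV:1022422-1022621 (minus strand), with the match 279 bases before it.
PHO5: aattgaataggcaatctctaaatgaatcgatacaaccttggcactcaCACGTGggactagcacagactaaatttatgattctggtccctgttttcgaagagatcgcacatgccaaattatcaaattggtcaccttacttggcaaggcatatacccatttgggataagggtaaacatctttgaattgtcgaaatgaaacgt
PHM6: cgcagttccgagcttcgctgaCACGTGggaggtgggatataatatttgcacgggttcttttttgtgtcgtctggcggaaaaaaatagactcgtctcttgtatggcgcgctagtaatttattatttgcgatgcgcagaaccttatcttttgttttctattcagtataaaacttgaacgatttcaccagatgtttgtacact

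CCW12 gave the largest rise of any gene that averaged 10 CPM or more, apart from RPL22B. It encodes a small mannoprotein of the inner cell wall and lies at chrXII:369697-370098 on the minus strand. It had 822 and 1202 CPM in ΔRPL22A monosomes, 109 and 124 CPM in ΔRPL22B and 202.0 and 179.8 CPM in wild type, a log2 fold change of 3.12 ± 0.41 (adjusted p = 3.46e-05). Both ΔRPL22A libraries stood far above the other 4. The mRNA was abundant in every pool of both strains, and there the strains were closer. Input held 2162 and 1594 CPM in ΔRPL22A and 1114 and 1063 CPM in ΔRPL22B (0.79 ± 0.38, adjusted p = 0.209). Light polysomes held 4048 and 3706 CPM in ΔRPL22A and 2608 and 3980 CPM in ΔRPL22B, and heavy polysomes 253 and 351 CPM in ΔRPL22A and 281 and 168 CPM in ΔRPL22B, and in both pools the strains overlapped. The monosome difference exceeded the input difference by 2.33 ± 0.54 (adjusted p = 0.279) and the heavy polysome difference by 2.69 ± 0.54 (adjusted p = 0.167), neither of which passed in the fit over all 24 libraries. By DESeq2 it was the 1 gene that passed in each of these tests, with adjusted p of 0.000654 against input and 3.26e-06 against heavy polysomes, and it also passed when the light polysome libraries of the deletion strains were left out (0.0133 and 0.000945). With any 1 monosome, input or heavy polysome library left out of the edgeR fit it did not pass. The ΔRPL22A monosome libraries correlated with ΔRPL22A light polysome replicate 1, which held 4048 CPM of CCW12, at an r of 0.933 and 0.931; its part in this value was not tested.

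Other cell wall genes went both ways. Of 21 tested, CCW12 and SRL1 rose and TIR1, DAN1 and CWP1 fell, against 1.51% and 1.60% of all tested genes. The list's median was 0.02. SRL1, another wall mannoprotein, had 36 and 12 counts in ΔRPL22A and 2 and 1 counts in ΔRPL22B, a ratio of 9.46 (95% counting interval 3.05 to 47.5). CWP1 had 3.54 and 3.46 CPM in ΔRPL22A and 13.3 and 9.10 CPM in ΔRPL22B (-1.69 ± 0.36). DAN1, a mannoprotein of anaerobic cells, had 3 counts in ΔRPL22A and 24 in ΔRPL22B. The abundant CWP2 did not pass, with 152.7 and 164.5 CPM in ΔRPL22A and 202.9 and 139.8 CPM in ΔRPL22B.

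Among the remaining lists, some nitrogen genes fell, and iron genes that passed went both ways. For comparison, 1.51% of all tested genes rose and 1.60% fell. DUR12, urea amidolyase, had 0.805 and 2.02 CPM in ΔRPL22A and 10.3 and 6.20 CPM in ΔRPL22B (-2.71 ± 0.46, adjusted p = 0.00133), and the ornithine transaminase CAR2 fell by 1.42 ± 0.38, as 2 of 17 tested genes of glutamate and nitrogen metabolism (median -0.42). Of 30 iron genes, ISU2, a scaffold for iron-sulfur clusters, rose, with 21.6 and 20.2 CPM in ΔRPL22A and 6.05 and 5.38 CPM in ΔRPL22B (1.86 ± 0.40). Its paralog ISU1 stood at 0.20 ± 0.35 and did not pass. The siderophore transporter ARN1 (4.51 and 4.03 CPM in ΔRPL22A, 14.5 and 9.51 CPM in ΔRPL22B) and the wall protein FIT1 (3 counts in ΔRPL22A and 21 in ΔRPL22B) fell. PDR5, a drug efflux pump outside the lists, had 21.4 and 21.9 CPM in ΔRPL22A and 76.2 and 68.7 CPM in ΔRPL22B, and its log2 fold change was -1.74 ± 0.28 (adjusted p = 0.000752). Of 20 pheromone pathway genes FUS3, the mating kinase (1.39 ± 0.31), KAR4, a regulator of nuclear fusion genes (17.1 and 12.1 CPM in ΔRPL22A, 5.75 and 5.38 CPM in ΔRPL22B), and FIG2 rose; FIG2 had 25 counts in ΔRPL22A and 2 in ΔRPL22B. VMA10, a subunit of the vacuolar proton pump, had 97.0 and 112.7 CPM in ΔRPL22A and 34.5 and 35.1 CPM in ΔRPL22B (1.59 ± 0.40). Calmodulin, CMD1, had 32.4 and 46.1 CPM in ΔRPL22A and 16.03 and 9.10 CPM in ΔRPL22B (1.61 ± 0.36). The list of genes near the RPL22 loci had 4 tested members, MIL1, MOB2, FRS1 and HAC1, and 0 passed in monosomes. HAC1, at chrVI:75179-76147, is not a direct neighbor of RPL22B, because MIL1 lies between them. MIL1, next to RPL22B, had 0.966 and 0.576 CPM in ΔRPL22A and 2.12 and 2.07 CPM in ΔRPL22B (-1.33 ± 0.60, adjusted p = 0.262), and it passed as lower in input (-1.25 ± 0.32, adjusted p = 0.0205) and in light polysomes (-1.57 ± 0.47, adjusted p = 0.0377).

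In each of the other pools, 44.3% to 50.3% of the 167 genes passed as well. The sign was the same as in monosomes for 162 of the 167 in input, 160 in light and 157 in heavy polysomes, against 3456, 3378 and 3479 of all 5380 tested genes. In input 74 of them passed in the same direction, which is 44.3% of the monosome genes and 26.1% of the 283 genes that passed in input (5.26% of genes tested, 2.32% higher and 2.94% lower in ΔRPL22A). In light polysomes 84 did, 50.3% of the monosome genes and 21.7% of the 387 that passed there (7.19%, 4.20% higher and 2.99% lower), and in heavy polysomes 83, 49.7% and 28.7% of 289 (5.37%, 2.43% higher and 2.94% lower). None of the 167 passed in the opposite direction in another pool, and 43 passed in all 4, of which 18 were higher and 25 lower in ΔRPL22A. Over the 1242 genes that averaged 10 CPM or more, the monosome fold changes correlated across genes with those of the other pools. Pearson's r was 0.736 with input, 0.645 with light and 0.631 with heavy polysomes. RPL22B, the gene deleted in ΔRPL22B, is among the 167, the 43 and the 1242. Its fitted log2 fold changes were 12.84 in monosomes and 11.7, 13.19 and 11.84 in input, light and heavy polysomes. This far point weighs on each r, and r without it was not computed. The labels do not say whether the pools of a replicate came from the same culture, and genes are not independent replicates.

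**Figure D3:**
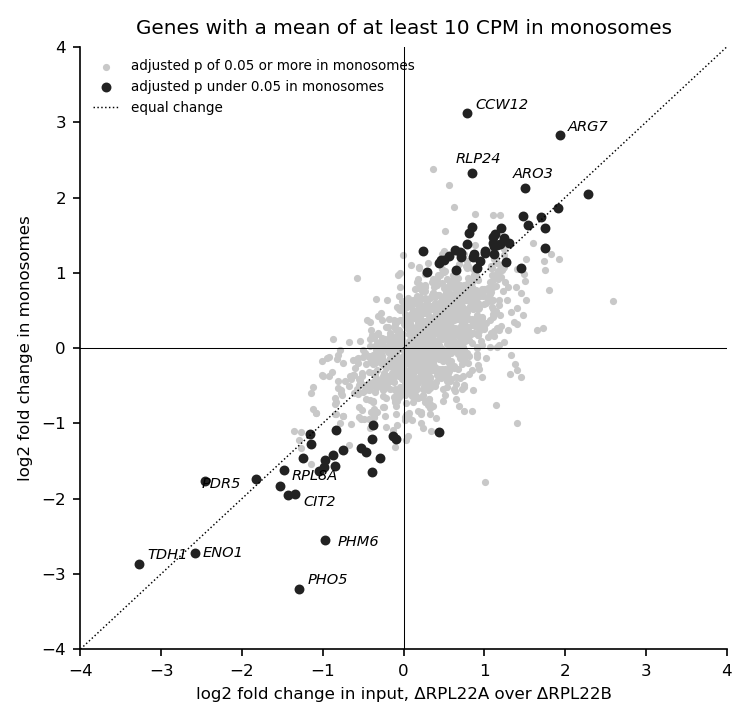
Log2 fold change (ΔRPL22A over ΔRPL22B) in monosomes against that in input for the 1241 genes averaging 10 CPM or more that lie within the axes (RPL22B lies outside them); black points passed the test in monosomes and the dotted line marks equal change. CCW12 (3.12 in monosomes, 0.79 in input) and PHO5 (-3.20 and -1.29) lie farther from the line than ENO1 (-2.72 and -2.59).

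Tested directly, 0 genes passed for a monosome difference beyond that in input (413 at an unadjusted p under 0.05, smallest adjusted p 0.144), and 0 for a difference beyond that in heavy polysomes (351 and 0.167; edgeR). DESeq2 called 1 gene in each, CCW12. ENO1 stood at -2.59 in input, -1.75 in light and -3.13 in heavy polysomes, all 3 past the threshold. PDR5 stood at -1.83, -1.94 and -1.51 in the same pools, ARG7 at 1.94, 2.53 and 1.13 and HIS1 at 1.48, 1.68 and 0.93. PHO5, at -3.20 in monosomes, stood at -1.29, -1.94 and -1.67, and passed in all 3. GCV3 (2.28, 2.395 and 1.34), CIT2 (-1.34, -1.44 and -1.33) and DUR12 (-3.04, -3.01 and -2.41) also passed in each. RLP24 stood at 0.85, 1.26 and 1.13 and did not pass in input, PHM6 at -0.97, -1.91 and -1.55 and did not pass in input, and ISU2 at 1.92, 1.89 and 0.90 and did not pass in heavy polysomes. RPS11A (0.56, 0.12 and 0.16), VMA10 (1.21, 0.31 and 0.73) and CMD1 (0.84, 0.65 and -0.18) passed in monosomes and in none of these pools. As given above, their differences between pools did not pass in the fit over all 24 libraries. CMD1 passed beyond heavy polysomes under at least 1 of the alternative settings.

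**Figure D4:**
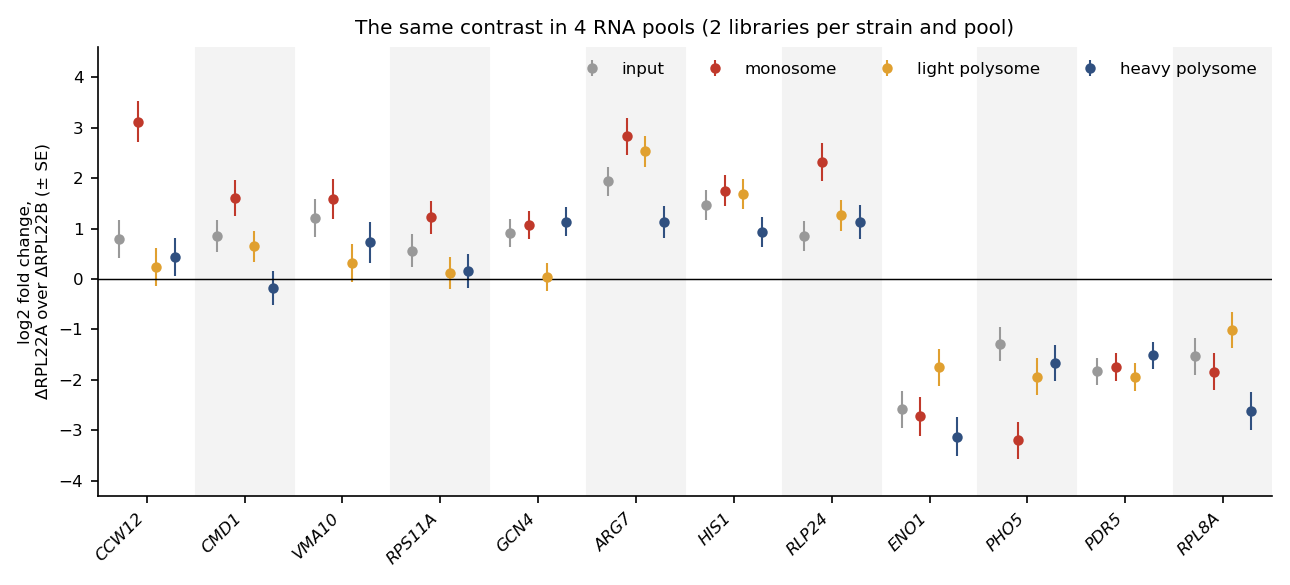
Log2 fold change (ΔRPL22A over ΔRPL22B, ± SE) of 12 genes in input, monosomes, light polysomes and heavy polysomes, each from 2 libraries per strain. CCW12 stands at 3.12 in monosomes and at 0.79, 0.24 and 0.43 in input, light and heavy polysomes, whereas PDR5 stays between -1.94 and -1.51.

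The medians of the ribosomal protein mRNAs lay above 0 in monosomes and below 0 in heavy polysomes. The median over the 77 large-subunit genes was 0.67 in input and 0.58 in monosomes, but -0.07 in light and -0.43 in heavy polysomes. The 57 small-subunit genes gave 0.54, 0.42, -0.23 and -0.46 in the same order. Summed over the large-subunit genes, monosomes held 44060 and 48610 CPM in ΔRPL22A and 32830 and 30430 CPM in ΔRPL22B, and heavy polysomes held 15030 and 20290 CPM in ΔRPL22A and 27540 and 28920 CPM in ΔRPL22B. ΔRPL22A was higher in monosomes and lower in heavy polysomes, and the strains did not overlap in either pool. Duplicates of 1 group also differed widely: wild type held 32380 and 42500 CPM in monosomes and 34070 and 21090 CPM in heavy polysomes, and light polysomes held 65060 and 34220 CPM in ΔRPL22A and 27050 and 70360 CPM in ΔRPL22B. The monosome difference minus the heavy polysome difference was above 0 for 77 of the 77 large-subunit and 56 of the 57 small-subunit genes, against 2686 of all 5380 tested genes, with medians of 1.06 and 0.87 against -0.001. No single member passed this test. Against input the same difference was above 0 for 32 of the 77 and 22 of the 57, with medians of -0.06 and -0.08. Other lists also had a median above 0 for the monosome difference minus the heavy polysome difference, among them cell wall mannoproteins (0.996, 17 of 21 above 0), the respiratory chain and ATP synthase (0.78, 25 of 31), the thioredoxin, peroxidase and glutathione list (0.67, 22 of 29) and histones (0.52, 10 of 10). Large-subunit assembly factors had medians of 0.50 in input, 0.87 in monosomes, 0.75 in light and 0.94 in heavy polysomes.

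**Figure D5:**
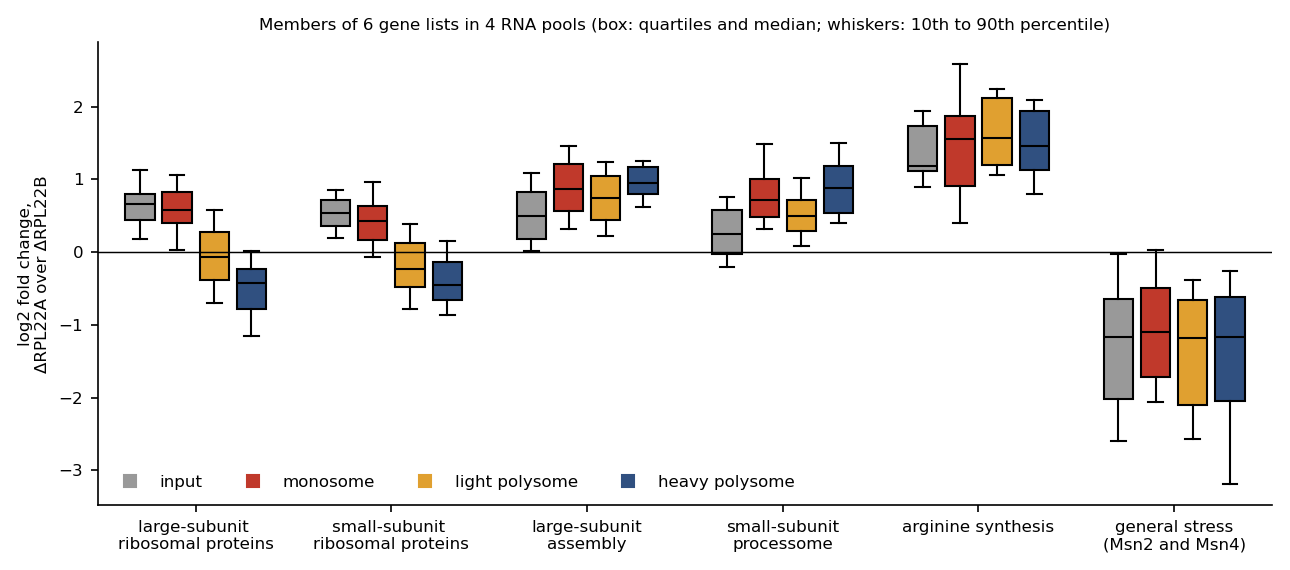
Log2 fold change (ΔRPL22A over ΔRPL22B) of the members of 6 gene lists in 4 RNA pools; boxes give the quartiles and the median and whiskers the 10th and 90th percentiles. Ribosomal protein medians lie above 0 in input and monosomes and below 0 in heavy polysomes (-0.43 and -0.46), while arginine synthesis stays between 1.18 and 1.57 and general stress between -1.18 and -1.10.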

How the data were processed

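The deposited table gives whole-number read counts per gene; per the submitters' processing notes, RSEM 1.2.18, cutadapt 1.4 and SAMtools 0.1.19 were used on build sacCer3, without their roles. Per the series design, groups are biological duplicates, and reads of 2 sequencing lanes were merged. Per the labels, the molecule was polyA RNA and gradient fractions were sequenced. The sources used here do not say how reads were counted or whether strand was used, so overlapping genes are uncertain. Columns were assigned by their labels, with 0 left unassigned.

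Counts were tested as deposited with edgeR 4.0.16 in R 4.3.3: filterByExpr (minimum count 10, minimum total 15) kept 5380 of 6369 genes, libraries were scaled by TMM, and 1 model with a mean for each of 12 groups was fitted to all 24 libraries (12 residual degrees of freedom, prior 16.1). The quasi-likelihood F-test was adjusted by Benjamini-Hochberg over all tested genes at 0.05. P-values rest on the spread between duplicates pooled over the 12 groups. The standard error is |log2 fold change| over √F. Differences between pools were tested as interactions. Duplicates differed by more than sampling noise outside the ribosomal DNA (chi-square per degree of freedom 8.18 in ΔRPL22A and 2.35 in ΔRPL22B) and count as separate samples. Counting intervals are exact at 95% and cover counting error only. No set test was run.

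The comparison and the gene lists (40, of which 39 had tested genes) were chosen with earlier results of these data known. Named genes are RPL22A and RPL22B, GCN4 and the genes listed near both loci. Up to 15 rises and 15 falls of largest fold are named among genes that passed with at least 10 CPM and no overlap. Of each list, up to 4 that passed and up to 2 abundant ones that did not are named. Others are named as chosen after their values were seen, or as paralogs, members that complete a count, or marker genes. Some items that this rule names are not reported here. Annotation and sequences come from RefSeq R64, which matched 5908 of the table's genes. Alternatives were relative log expression scaling, no ribosomal DNA rows, no low-count filter, a 1.5-fold threshold (glmTreat), only the compared groups, no light polysome libraries of the deletion strains, a replicate block and DESeq2 1.42.0. Each library of the compared groups was also left out in turn, while libraries of other groups stayed in.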

Additional observations from a re-analysis of the deposited data

How the results depend on the processing

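The 167 genes that passed in monosomes were 167 with relative log expression scaling, 175 without the ribosomal DNA rows, 231 without a filter on low counts, 141 with DESeq2 and 166 with the replicate block. Against a 1.5-fold threshold 39 passed. Fitting only the compared groups gave 512 and leaving out the light polysome libraries of the deletion strains gave 338, including 154 and all 167 of the main genes; leaving out 1 library gave 13 to 70. For the difference beyond input, 4 genes passed with only the compared groups, 4 without those light polysome libraries and 1 with DESeq2; beyond heavy polysomes 27, 5 and 1 did. The other alternatives gave 0 for both. These alternatives use fewer samples or another estimate of the spread; the cause was not tested. A replicate number may only be a name: ΔRPL22A and ΔRPL22B libraries of the same number deviated together with an r of 0.243 over 2208 genes, and the block kept 163 of the 167 genes. All scalings moved the median log2 fold change in monosomes by less than 0.1, and of the list medians only that of cyclins changed sign, between -0.0351 and 0.0116. Of the 68 genes that passed and that the naming rule gave, 9 did so under every setting and without any 1 library, and 0 reversed. The 9 include RPL22B, the gene deleted in ΔRPL22B. The shallowest library held 314212 counts outside the ribosomal DNA, which limits the precision for genes of few counts.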

Other observations

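Of the 167 genes that passed in monosomes, 92 were on no list. The following genes were chosen after their values were seen. Among those that rose, NSR1, a nucleolar protein of pre-rRNA processing, averaged 64.9 CPM in ΔRPL22A and 26.5 CPM in ΔRPL22B (log2 fold change 1.28 ± 0.29 with SE, edgeR adjusted p = 0.0119), and PNO1, needed for small-subunit maturation, averaged 27.2 CPM in ΔRPL22A and 10.4 CPM in ΔRPL22B. The pre-rRNA dimethyltransferase DIM1, the exosome subunits RRP45 and RRP46 and the RNA polymerase subunits RPB5 and RPB8 also rose. TOD6, a repressor of ribosome biogenesis genes, rose too, at an average of 8.57 CPM in ΔRPL22A and 1.62 CPM in ΔRPL22B. The ubiquitin-conjugating enzyme UBC4 had 40.4 and 43.2 CPM in ΔRPL22A and 15.7 and 18.6 CPM in ΔRPL22B, a log2 fold change of 1.29 ± 0.29. In input, light and heavy polysomes it stood at 0.24, 0.31 and -0.54 and did not pass. Its monosome difference did not pass beyond input (1.05 ± 0.39, edgeR adjusted p = 0.545) or heavy polysomes (1.82 ± 0.40, 0.214). Beyond heavy polysomes it passed by edgeR with only the compared groups (0.00261) and without the deletion strains' light polysome libraries (0.0145).

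Of genes off the lists that fell, the following were also chosen after their values were seen. The low-affinity glucose transporter HXT3, the amino acid permease AGP1, the peptide transporter PTR2 and the efflux pump PDR15 were lower in ΔRPL22A, as were the phospholipid methyltransferases CHO2 and OPI3. The polyubiquitin gene UBI4, a stress-induced source of ubiquitin, fell too.

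The lists not described above follow, beside 1.51% of all tested genes that rose and 1.60% that fell. The mitochondrial intron-encoded AI1 was the 1 of 12 mitochondrially encoded genes that rose, with 12.9 and 13.8 CPM in ΔRPL22A and 3.33 and 5.79 CPM in ΔRPL22B. Of 25 ergosterol genes, ERG20, farnesyl pyrophosphate synthetase, fell by 1.08 ± 0.27 on the log2 scale. Of 20 genes of purine and guanine synthesis, PRS3 rose by 1.03 ± 0.28 and the IMP dehydrogenase IMD2 fell by 1.63 ± 0.38. The proteasome subunit RPN12 was the 1 of 33 proteasome genes that rose (1.31 ± 0.36, edgeR adjusted p = 0.0399). By edgeR at the same threshold, 0 genes passed among 10 of the pentose phosphate pathway, 10 histone genes, 20 for cyclins and the cell cycle and 15 for folding in the endoplasmic reticulum. As only 3.10% of all tested genes passed, 0 in lists this short says little about them.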
